A study of Mus musculus with 12 samples.

Results

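The 8 genes described here, *Tcp1*, *Cct2*, *Cct3*, *Cct4*, *Cct5*, *Cct6a*, *Cct7* and *Cct8*, encode the subunits of the chaperonin CCT (also called TRiC). They were taken by name as the complete set of core subunit genes, and all 8 were among the 15687 genes with deposited values. RNA-seq had been done on 12 subcutaneous tumors formed by mTc11 cells, a line of mouse lung cancer. Cells in Matrigel were injected into 8-week-old male C57BL6/J mice, which are immune-competent hosts of the same strain background, and the tumors were taken at day 24. CTL tumors (6) came from cells with a control shRNA, labelled WT, and *Filip1l*-knockdown tumors (6) from cells with a lentiviral shRNA against *Filip1l*, labelled Filip1l KD. FILIP1L is a filamin A-interacting protein that the study describes as a tumor suppressor and places upstream of prefoldin subunit PFDN1. The cells were stably transduced derivatives described as clones, and the labels do not say which of the study's shRNA constructs the sequenced tumors carried. Each library was made from bulk tumor, so host vessels, immune cells, stroma and any adjoining muscle were sequenced together with the cancer cells, and a lower transcript level from fewer cells of a type cannot be told apart from less RNA per cell.

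CCT is a cytosolic folding machine built of a pair of stacked rings. In each ring the 8 different subunits occupy fixed places, one copy each, and close over a bound protein with the use of ATP. *Tcp1* encodes CCTα, *Cct2* CCTβ, *Cct3* CCTγ, *Cct4* CCTδ, *Cct5* CCTε, *Cct6a* CCTζ, *Cct7* CCTη and *Cct8* CCTθ. Prefoldin, a jellyfish-shaped complex of small subunits, holds newly made actin and tubulin chains and hands them to CCT, which folds them. Other CCT clients include WD40-repeat proteins such as the activators of the anaphase-promoting complex and G protein β subunits. Because the complex needs its subunits together, their transcripts are of interest as a set as well as singly.

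The subunit genes lie on 8 different chromosomes, so none of them is a neighbour of another (GRCm38). *Tcp1* is at chr17:12915701-12925067 (+), *Cct2* at chr10:117051001-117063814 (-), *Cct3* at chr3:88297116-88321767 (+) and *Cct4* at chr11:22990519-23003780 (+). *Cct5* is at chr15:31590800-31601804 (-), *Cct6a* at chr5:129786998-129846371 (+), *Cct7* at chr6:85451514-85468475 (+) and *Cct8* at chr16:87483326-87495873 (-). Their principal transcripts are alike in size, from 1853 bases for *Cct5* to 2484 bases for *Cct4*. No window of 150 bases in these 8 transcripts occurred in the annotated transcripts of any other gene, pseudogenes included, so fragments of that length would have had a single annotated source. On the opposite strand, however, annotated exons of other genes overlap 4 of the transcripts: *Acat3* over 571 bases of *Tcp1*, *Psph* over 452 bases of *Cct6a*, *Pradc1* over 214 bases of *Cct7* and *Usp16* over 192 bases of *Cct8*. The library kit was not stated to keep strand, so reads in those overlaps cannot be assigned by strand. The overlapping genes had low levels beside the subunits, the highest being *Usp16* at a mean of 1052 normalized counts in CTL tumors.

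Since the members tended to move together from tumor to tumor, as shown further on, the sequence before their start sites was compared. RefSeq start sites (GRCm38.p6) matched 7 of the 8 genes, and the exception was *Cct4*. For *Cct6a* the RefSeq start (129787356) lay downstream of the start of the principal transcript (129786998). The 250 bases searched for *Cct6a* therefore lay inside the annotated gene, not before the start of that transcript. The *Tcp1* window also lay inside the annotated gene, which begins at 12915701, but before the start of its principal transcript (12916382). The printed stretches are those parts of the 250 bases before the start that lie in no annotated exon of either strand, for the 4 genes where such a stretch reached 100 bases. They are written 5′ to 3′ on the strand of the gene. Capitals mark, on either strand, the CCAAT box (CCAAT or ATTGG), the GC box (GGGCGG or CCGCCC) and the core of the ETS motif (CCGGAA or TTCCGG).
Cct2, chr10:117063853-117064102, minus strand: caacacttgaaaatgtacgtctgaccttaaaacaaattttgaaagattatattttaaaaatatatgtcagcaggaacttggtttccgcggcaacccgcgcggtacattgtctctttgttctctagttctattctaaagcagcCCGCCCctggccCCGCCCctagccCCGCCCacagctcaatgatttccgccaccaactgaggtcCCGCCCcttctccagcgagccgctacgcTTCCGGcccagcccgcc
Cct3, chr3:88297000-88297115, plus strand: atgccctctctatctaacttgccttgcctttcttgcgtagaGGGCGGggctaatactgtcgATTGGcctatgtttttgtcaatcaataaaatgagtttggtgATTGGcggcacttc
Cct7, chr6:85451284-85451504, plus strand: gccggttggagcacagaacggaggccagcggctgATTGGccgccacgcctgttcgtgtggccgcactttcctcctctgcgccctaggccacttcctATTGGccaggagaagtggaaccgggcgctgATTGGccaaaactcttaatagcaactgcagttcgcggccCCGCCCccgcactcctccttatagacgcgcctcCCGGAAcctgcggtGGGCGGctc
Cct8, chr16:87495874-87495998, minus strand: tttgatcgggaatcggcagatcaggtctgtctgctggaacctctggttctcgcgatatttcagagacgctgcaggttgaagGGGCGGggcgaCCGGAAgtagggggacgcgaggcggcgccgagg

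The GC box was found in the whole 250-base window of 7 of 7 subunit genes, compared with 32.7% of 32851 such windows over all genes, and the *Cct2* window held 4. GC content ran from 45.2% (*Cct5*) to 66.4% (*Cct7*) in the subunit windows, compared with a median of 52.4% over all windows. The windows of all genes were not chosen by GC content or by expression. The CCAAT box was found in 4 of 7 (*Tcp1*, *Cct3*, *Cct6a* and *Cct7*, with 3 copies in *Cct7*), compared with 33.9% of all windows. The ETS core was found in 4 of 7 (*Tcp1*, *Cct2*, *Cct7* and *Cct8*), compared with 12.03%. None of the 7 windows held CACGTG, the E-box read by MYC and related factors (6.02% of all windows), and none held GAANNTTC, the core of the heat shock element (6.69% of all windows). These letters were counted on both strands, they share no bases in the printed stretches, and a match describes the sequence only.

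The normalized count of *Filip1l* itself was 1983 to 2542 in the CTL group and 1670 to 2184 in the knockdown group. The groups overlapped, and the mean was lower in knockdown tumors by 0.26 on the log2 scale (SE 0.07, adjusted p = 0.00998, limma). Normalized counts are reads per gene divided by the library's size factor. The log2 fold change is the knockdown mean minus the CTL mean of log2(normalized count + 1), and adjusted p-values are from limma over all 15687 genes. A gene was called at an adjusted p under 0.05. Libraries held 17834745 to 29502069 reads on listed genes in CTL tumors and 25460564 to 32419578 in knockdown tumors. Epithelial genes were abundant. Of the lung epithelial markers, *Napsa* was measured at means of 244 in CTL and 461 in knockdown tumors and *Sftpb* at 29.7 and 304, while *Sftpc* (9.76 and 29.2, at 0 in 4 tumors) and *Nkx2-1* (17.2 and 39.4) were low, and *Scgb1a1* was not among the listed genes.

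All 8 CCT subunits were expressed strongly and within a narrow range in every tumor, and the knockdown tumors differed from CTL tumors by small amounts. Of the 8, 3 fell in *Filip1l*-knockdown tumors (*Cct4*, *Cct5* and *Cct6a*, with changes of -8.75% to -11.7%), none rose, and 5 did not pass the test. That is 37.5% of the members called, compared with 41.9% of all genes called in either direction and 20.7% of all genes called lower. The share of members called was thus close to that of all genes. The same 3 were called by edgeR and by DESeq2 on the recovered reads, which called 42.2% and 44.4% of all genes. In limma 0 members were higher at an unadjusted p under 0.05, and neither tool called any higher. None of the 8 passed the study's stricter rule, which also asks for an absolute log2 fold change over 1, compared with 10.2% of all genes. The fold change was negative for 7 members and positive for *Cct3* alone. Their median was -0.08 on the log2 scale, compared with 0.01 over all genes, and the median size of the change regardless of sign was 0.08, compared with 0.25. The 95% confidence intervals of all 8 lay between changes of -17.7% and 13.9%.

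**Figure D1:**
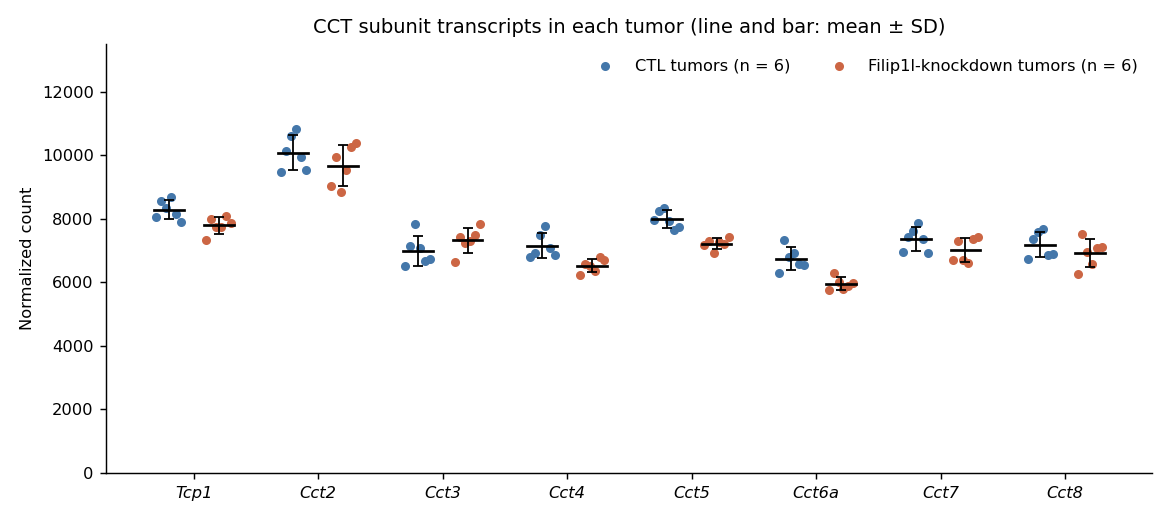
Normalized counts (vertical axis, linear from 0) of the 8 CCT subunit genes in each of 6 CTL and 6 *Filip1l*-knockdown tumors; points are tumors and black lines with bars are the mean ± SD. The groups are separate for *Cct5* and, by a narrow margin, for *Cct6a*, and they overlap for the other 6 genes.

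*Cct6a* had the largest change of the 8. Its normalized count in CTL tumors ranged from 6302 to 7334 with a median of 6695, and knockdown tumors ranged from 5743 to 6301 with a median of 5937. Every knockdown tumor was below every CTL tumor, but the highest knockdown tumor and the lowest CTL tumor were nearly equal. The mean fell from 6747 ± 360 to 5952 ± 204 (SD, n = 6 each). This is a log2 difference of -0.18 (SE 0.05, adjusted p = 0.00752, limma; exact two-sided permutation p = 0.00216, the smallest that 924 arrangements allow). In the annotation used here *Psph* covers 18.4% of the *Cct6a* transcript on the other strand. *Psph*, a serine synthesis phosphatase, rose from a mean of 337 to 416 (log2 fold change 0.31, adjusted p = 0.0392, limma), which is the opposite direction from *Cct6a* at a level far below it.

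*Cct5* had the smallest spread of the 8 and separated most clearly. CTL tumors ranged from 7630 to 8352 with a median of 7950, and knockdown tumors ranged from 6920 to 7420 with a median of 7241. The groups did not overlap, and the gap between them was wider than for *Cct6a*. The mean fell from 7982 ± 281 to 7215 ± 168, a log2 fold change of -0.15 (SE 0.04, adjusted p = 0.0124, limma; exact two-sided permutation p = 0.00216). Groups that did not overlap were found for 2 of the 8 subunits and for 21.5% of all genes.

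*Cct4* ranged from 6782 to 7761 in CTL tumors with a median of 7010 and from 6229 to 6793 in knockdown tumors with a median of 6542. Of the knockdown tumors, 5 of 6 were below every CTL tumor, and knockdown replicate 5 was just above CTL replicate 1. The log2 fold change was -0.13 (SE 0.05, adjusted p = 0.0384, limma; exact two-sided permutation p = 0.00433). This call was close to the threshold: leaving out any 1 of CTL replicates 3, 4 or 5 or knockdown replicates 1, 2, 3 or 4 ended it, with adjusted p-values in limma from 0.0574 to 0.0836. The calls of *Cct5* and *Cct6a* were kept in 12 of 12 such fits.

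*Tcp1*, the founding member of the family, ranged from 7904 to 8682 in CTL tumors with a median of 8249 and from 7333 to 8090 in knockdown tumors with a median of 7813. Every knockdown tumor was below the CTL median, and 4 of 6 were below every CTL tumor. The log2 fold change of -0.09 (SE 0.04) had an exact two-sided permutation p of 0.0152 on its own but did not pass after adjustment over all genes (adjusted p = 0.134, limma). The other subunits that were not called overlapped widely between the groups. *Cct2* ranged from 9486 to 10838 in CTL tumors and from 8850 to 10379 in knockdown tumors (log2 fold change -0.06, adjusted p = 0.415, limma). *Cct7* ranged from 6930 to 7876 and from 6596 to 7421 (-0.07, adjusted p = 0.304), and *Cct8* from 6739 to 7664 and from 6252 to 7521 (-0.06, adjusted p = 0.456). For these 3 genes the 95% intervals ran from a change of -11.9% at the lowest to 4.53% at the highest, so differences beyond these bounds were outside the intervals while smaller ones could not be resolved.

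*Cct3* was the 1 subunit with a higher mean in knockdown tumors. It ranged from 6503 to 7821 in CTL tumors with a median of 6903 and from 6646 to 7845 in knockdown tumors with a median of 7347. Among CTL tumors, replicate 3 stood highest, and 5 of 6 knockdown tumors were above the CTL median. The log2 fold change was 0.07 (SE 0.06, 95% CI -0.05 to 0.19, adjusted p = 0.363, limma), so a difference in either direction was not resolved.

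**Figure D2:**
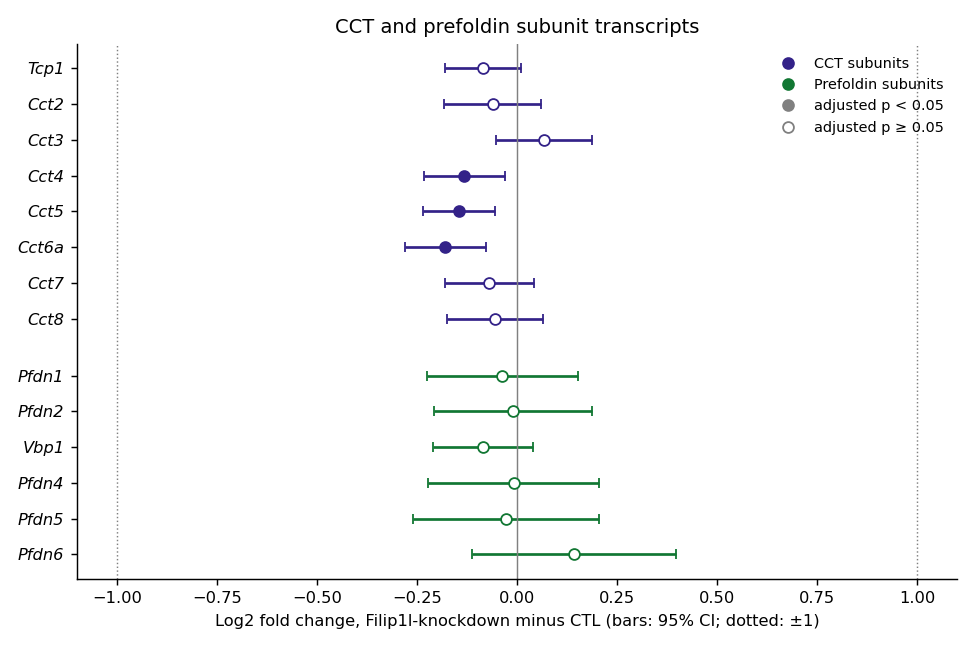
Log2 fold change (horizontal axis) of each CCT subunit and each prefoldin subunit in *Filip1l*-knockdown relative to CTL tumors, with 95% confidence intervals from limma; filled points passed an adjusted p under 0.05 and dotted lines mark changes of 1 in either direction. *Cct4*, *Cct5* and *Cct6a* lie to the left of 0 with intervals that exclude it, and every other interval includes 0.

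Markers of other cell types moved with the groups. For comparison with the counts below, 21.1% of all genes were called higher and 20.7% lower. Skeletal muscle markers rose in 7 of 8 genes, and their summed normalized count ranged from 2262 to 12089 over the CTL group and from 5080 to 87690 over the knockdown group. When the muscle level entered the fit as a covariate, none of the 8 subunits was called, compared with 33.0% of all genes in that fit, and 1 had an unadjusted p under 0.05: the log2 fold changes were -0.14 for *Cct6a* (adjusted p = 0.105, limma), -0.11 for *Cct5* (adjusted p = 0.157) and -0.11 for *Cct4* (adjusted p = 0.241), each smaller than without the covariate. *Cct2* and *Cct7* then had fold changes of 0.03 and 0.01, of the opposite sign. The mean muscle sum was itself 5542 in CTL and 29730 in knockdown tumors, so muscle level and group cannot be fully told apart in this fit. Neutrophil markers rose in 6 of 6 genes (summed 305 to 380 and 767 to 1223), endothelial markers in 4 of 5 (2042 to 2589 and 2601 to 4126) and epithelial markers in 5 of 6 (135463 to 176172 and 189996 to 354598). Fibroblast markers fell in 2 of 6 (159034 to 258613 and 74138 to 250941). Macrophage markers rose in 1 of 5 (8834 to 11742 and 7997 to 14822), adipocyte markers in 2 of 3 measured (188 to 389 and 398 to 746) and T cell markers in 0 of 6 (774 to 2135 and 889 to 1670). The single B cell marker listed also rose (11.4 to 29.9 and 27.4 to 62.9), as did 2 of 4 lung epithelial markers (185 to 339.9 and 285 to 1399). The covariate fit does not settle the part of muscle in the subunit levels, and the part of the other lists was not tested.

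The sum over the 8 subunits was 61780 ± 2720 normalized counts in CTL tumors and 58401 ± 2328 in knockdown tumors, and the ranges of 58775 to 64755 and 55098 to 60731 overlapped. As a share of all counts of a tumor, the 8 transcripts took 0.226% to 0.240% in CTL tumors and 0.210% to 0.219% in knockdown tumors. On this scale the groups were separate. The scale counts the same reads against the library total in place of the size factor, and when all tumors were rescaled to the same total the number of subunits called rose from 3 to 5, with 42.1% of all genes called, and with *Tcp1* (log2 fold change -0.13, adjusted p = 0.0132, limma) and *Cct7* (-0.11, adjusted p = 0.0450) added. The same rescaling moved the median fold change of all genes to -0.03.

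The subunits were steadier from tumor to tumor than most genes. Their within-group SD on the log2 scale ranged from 0.04 (*Cct5*) to 0.09 (*Cct2*, *Cct3* and *Cct8*) with a median of 0.07, while the 12888 genes whose normalized count averaged 50 or more had a median SD of 0.17, and 3.85% of them had an SD below the subunit median. For comparison, among 327 other genes at the same level, with means between 6350 and 9876, the median SD was 0.13, and 49.5% were called. The median size of the change in these genes was 0.18, compared with 0.08 for the subunits.

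Levels of different subunits were compared as normalized counts per kilobase of the principal transcript. In CTL tumors the order was *Cct2* (5148 ± 281), *Cct5* (4307 ± 151), *Cct3* (3535 ± 241), *Tcp1* (3385 ± 123), *Cct7* (3015 ± 153), *Cct8* (3001 ± 168), *Cct4* (2880 ± 157) and *Cct6a* (2749 ± 147; SD, n = 6). Knockdown tumors had nearly the same order by neighbours, from *Cct2* (4935 ± 326) to *Cct6a* (2426 ± 83.2), with *Cct8* (2888 ± 186) and *Cct7* (2873 ± 156) exchanged. *Cct2* was above *Cct5* and *Cct5* above *Cct3* in all 12 tumors. *Cct7* was above *Cct8* in 3 of 6 tumors of each group, so this pair could not be ordered. *Cct4* was above *Cct6a* in 5 of 6 CTL tumors and 6 of 6 knockdown tumors. The highest subunit was 1.89 ± 0.0527 times the lowest in CTL tumors and 2.04 ± 0.132 times in knockdown tumors. The order of genes depends on the length chosen. Dividing by the union of all annotated exons gave a ratio of 3.63 between the highest and lowest CTL means. *Cct2* (3944) and *Cct5* (2886) stayed highest on that scale, but *Cct7* (1086) and *Cct3* (1097) were then lowest and *Cct6a* (1864) was not. The principal transcript lengths include bases overlapped by other genes, most in *Tcp1* (571) and *Cct6a* (452). Whether reads in those bases were counted was not examined, so the places of these genes are uncertain.

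The balance among subunits was then compared within each tumor, as the log2 ratio of each subunit to the mean of the other 7, which is not affected by the scaling of the library. This is a description without a test. *Cct3* shifted most. Its log2 ratio ranged from -0.20 to -0.04 in CTL tumors and from -0.04 to 0.07 in knockdown tumors, a mean of -0.15 ± 0.0596 and 0.02 ± 0.0439. In 5 of 6 knockdown tumors the ratio was above that of every CTL tumor, and CTL replicate 3 was apart from the other CTL tumors, which lay between -0.20 and -0.14. *Cct6a* shifted the other way, from a range of -0.27 to -0.11 in CTL tumors to -0.39 to -0.27 in knockdown tumors, with 5 of 6 knockdown tumors below every CTL tumor. *Cct5* had a mean log2 ratio of 0.07 in CTL tumors and -0.00308 in knockdown tumors, and *Cct4* of -0.11 and -0.17. The means of *Tcp1*, *Cct2*, *Cct7* and *Cct8* differed by -0.00396 to 0.03 between the groups. Relative to the other subunits, *Cct3* transcript was thus higher and *Cct6a* transcript lower in most knockdown tumors.

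**Figure D3:**
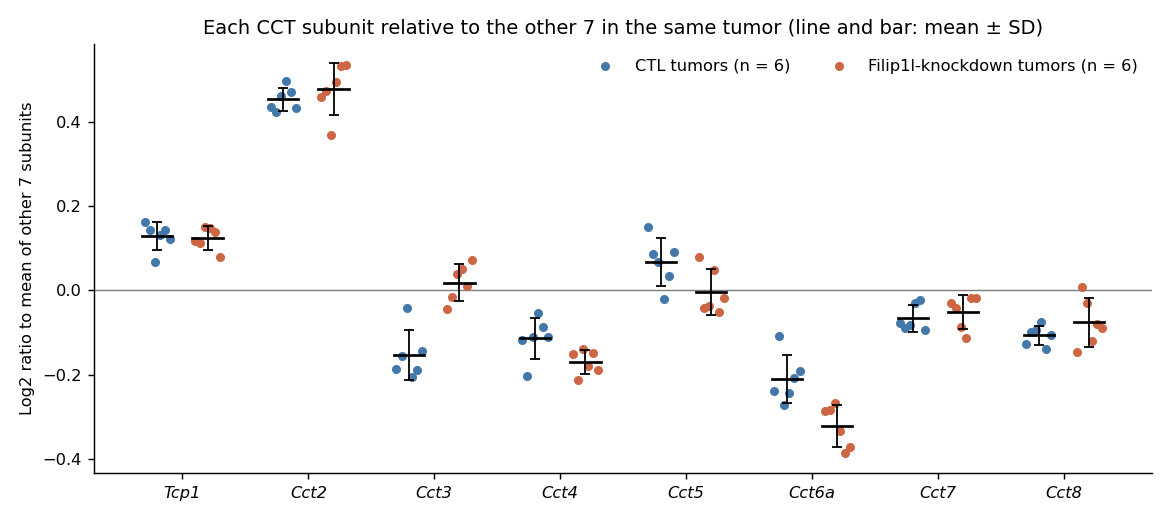
Log2 ratio (vertical axis) of each CCT subunit to the mean of the other 7 in the same tumor; points are tumors, black lines with bars are the mean ± SD of 6 tumors, and the grey line at 0 marks equality. *Cct3* is higher and *Cct6a* lower in knockdown tumors, with 1 tumor of each group in the range of the other.

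Across the 12 tumors the subunits moved with each other after the group means were removed. Over the 28 pairs, Pearson's r ranged from 0.24 (*Cct4* and *Cct5*) to 0.92 (*Cct2* and *Cct7*) with a median of 0.71. After Benjamini-Hochberg adjustment over the 28 pairs, 18 passed by Pearson's r and 19 by Spearman's rho (permutation tests, 100000 draws). The share passing among pairs of other genes was not computed, so these counts do not show a trait particular to CCT. For *Cct2* and *Cct7*, r was 0.92 (permutation p = 0.00073, adjusted p = 0.00931) and rho 0.82 (permutation p = 0.00381, adjusted p = 0.0120), and r remained 0.92 without the 2 tumors farthest from the median of *Cct2*. Within groups it was 0.98 in CTL and 0.88 in knockdown tumors. For *Cct4* and *Cct5*, r was 0.24 (permutation p = 0.529, adjusted p = 0.529) and rho 0.31 (permutation p = 0.392, adjusted p = 0.392), and r was 0.12 without the 2 farthest tumors. *Cct5* had the weakest links, with a median r of 0.44 to the other subunits, compared with 0.81 for *Cct7*, and *Cct6a* followed with 0.54. Both of the subunits whose groups did not overlap thus had the lowest median r. The points share library, depth and size factor, and the part of these in the correlations was not tested. Over 12880 genes, r with the subunit mean had a median of -0.02, and 21.3% of them had r above 0.5. Division by size factors holds the typical gene near level between tumors, so this median cannot speak to those shared parts.

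**Figure D4:**
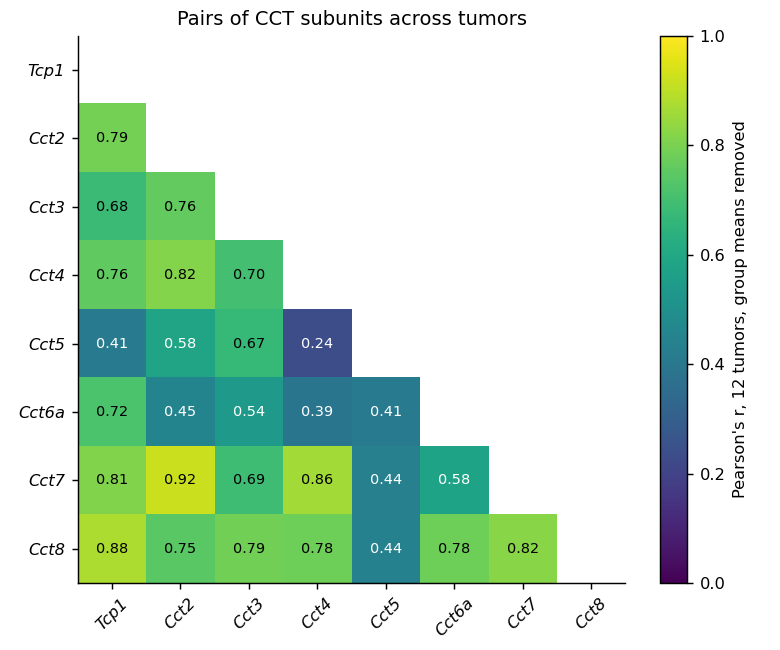
Pearson's r (colour and printed number) between the log2 values of each pair of CCT subunits over 12 tumors after removal of the group means. Values run from 0.24 for *Cct4* with *Cct5* to 0.92 for *Cct2* with *Cct7*, and the *Cct5* row and column hold most of the low values.

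The 5 genes most like the subunits over the 12 tumors, by Pearson's r with the mean log2 value of the 8 after removal of the group means, were *Zmat2* (0.97), *Ubl5* (0.96), *Bloc1s2* (0.96), *Sumo2* (0.95) and *Lsm7* (0.95). None of these 5 was called between the groups. The 5 most opposite were *Akap13* (-0.97), *Mdn1* (-0.95), *Mdm4* (-0.94), *Helq* (-0.94) and *Nbeal1* (-0.92). Transcript length moved with this likeness. The 100 most alike genes had a median length of 1459 bases and the 100 most opposite 6646 bases, compared with 2981 bases over 12880 genes and 2418 for the subunits. Removal of trends with GC content and transcript length from each tumor, a step chosen after the data were seen, raised the number of subunits called from 3 to 5 and the share of all genes called to 45.5%, adding *Tcp1* (log2 fold change -0.13, adjusted p = 0.0132, limma) and *Cct2* (-0.13, adjusted p = 0.0230), and brought *Cct3* to -0.01 (adjusted p = 0.902).

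Genes that work with CCT were counted from lists of related genes, with the same fit. Of the 6 prefoldin subunits, which deliver unfolded chains to CCT, none passed the test in limma, edgeR or DESeq2, and 0 had an unadjusted p under 0.05 in limma. Over all genes the share called was 41.9% in limma, 42.2% in edgeR and 44.4% in DESeq2. Their fold changes ran from -0.09 for *Vbp1* (adjusted p = 0.258, limma) to 0.14 for *Pfdn6* (adjusted p = 0.370), with -0.04 for *Pfdn1* (adjusted p = 0.765), -0.01 for *Pfdn2* and *Pfdn4* and -0.03 for *Pfdn5*. The normalized count of *Pfdn1* ranged from 1383 to 1798 in the CTL group and from 1378 to 1803 in the knockdown group, which is nearly the same range. These are RNA values. The study reported higher PFDN1 protein, by immunoblot of the knockdown cells and by staining of tumors, which RNA does not measure. The phosducin-like proteins and other cochaperones that bind CCT also held none called of 4 measured by the same 3 tools, and 0 at an unadjusted p under 0.05. The highest of them, *Txndc9*, had means of 1742 and 1762. The median fold change was -0.02 for prefoldin and -0.01 for the cochaperones. Against the subunit mean over 12 tumors, prefoldin subunits had r from 0.47 (*Vbp1*) to 0.91 (*Pfdn6*). Such values were not particular to prefoldin, since 21.3% of all genes had r above 0.5 and the list median was 0.77 for the actin and tubulin clients and 0.70 for the cochaperones.

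Among the chaperonin-like proteins of the Bardet-Biedl syndrome, *Bbs12* fell (means 181 and 121, log2 fold change -0.61, adjusted p = 0.0157, limma), and *Mkks* and *Bbs10* did not pass. Thus 1 of 3 measured was called (33.3%, compared with 41.9% of all genes). *Cct6b* and *Cct8l1*, paralogs of CCT subunits, were not among the listed genes. Of the 7 tubulin folding cofactors, which take tubulin after CCT, 2 rose and 1 fell, and this share of 42.9% called was close to that of all genes (41.9%). *Tbcc* and *Tbce* each rose by 0.24 on the log2 scale (adjusted p = 0.0306 and 0.0162). *Arl2*, the GTPase of the cofactor complex, fell from 1232 ± 176 to 703 ± 43.3 without overlap (-0.80, adjusted p = 6.92e-06). *Arl2* lies on chromosome 19, whose genes had a median fold change of -0.35 in this comparison. Of the 7 genes of the R2TP and prefoldin-like complex, *Uxt* rose (0.37, adjusted p = 0.0316), *Uri1* fell (-0.19, adjusted p = 0.0162) and 5 did not pass. This share of 28.6% called was below the 41.9% of all genes.

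Among 13 actin and tubulin clients of CCT, 4 rose and 5 fell, so 69.2% were called, compared with 41.9% of all genes. Those that fell most were *Tubb3* (-0.85, adjusted p = 0.000125), *Tuba1a* (-0.76, adjusted p = 3.39e-05), *Tubb2b* (-0.61, adjusted p = 0.000147) and *Tubb2a* (-0.48, adjusted p = 0.000193), all without overlap of the groups, and *Tuba1a* went from 7509 ± 876 to 4454 ± 659 normalized counts. Those that rose were *Actg1* (0.41, adjusted p = 0.000405, limma), *Tubb4b* (0.39, adjusted p = 0.0101), *Tuba1c* (0.32, adjusted p = 0.00634) and *Tubb6* (0.31, adjusted p = 0.0111). *Tubb3* lies on chromosome 8, whose median was -0.19. Tubulin genes resemble each other in coding sequence, and reads that they share were not examined here, so their separate values are less certain. Among 14 WD40 and other clients, 4 rose (28.6%, compared with 21.1% of all genes called higher) and none fell, with 0 lower at an unadjusted p under 0.05 in limma or called lower by edgeR or DESeq2. *Cdc20*, an activator of the anaphase-promoting complex, rose from 2100 ± 266 to 2745 ± 322 (0.39, adjusted p = 0.00414), *Fzr1*, its relative, rose by 0.20 (adjusted p = 0.0143) and the G protein subunit *Gnb5* by 0.36 (adjusted p = 0.0408). *Ppp2r2a*, a phosphatase regulatory subunit on chromosome 14, rose by 0.36 (adjusted p = 9.22e-05), where the chromosome median was 0.39. The actin and tubulin list had a median of -0.02 and the WD40 list of 0.10, with genes moving in both directions in the first.

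Of 19 cytosolic heat shock chaperones and their factors, 5 fell (26.3%, compared with 20.7% of all genes) and none rose, and their median was -0.23. The share called was below the 41.9% of all genes called in either direction. By the other tools, 7 fell with edgeR and 7 with DESeq2, and 0 were higher at an unadjusted p under 0.05. The small heat shock protein gene *Hspb1* fell from 4370 ± 496 to 1914 ± 644 (-1.26, adjusted p = 0.000163, limma), *Stip1*, which links HSP70 to HSP90, from 7459 ± 564 to 5029 ± 401 (-0.57, adjusted p = 1.09e-05) and *Hsf2*, a heat shock factor, from 429 ± 33.9 to 323 ± 36.9 (-0.41, adjusted p = 0.00217). *Dnajb1*, an HSP40, fell by 0.32 on the log2 scale (adjusted p = 0.0327). *Stip1* is on chromosome 19 and *Dnajb1* on chromosome 8, with medians of -0.35 and -0.19. Of 4 mitochondrial chaperones, *Hspa9* (0.26, adjusted p = 0.00182) and *Trap1* (0.23, adjusted p = 0.00317) rose. Among 13 MYC and nucleolar growth genes, *Odc1* rose (0.40, adjusted p = 2.34e-05) and *Nolc1* (-0.37, adjusted p = 4.93e-06) and *Npm1* (-0.23, adjusted p = 0.00926) fell, and *Nolc1* also lies on chromosome 19. Of 10 proliferation genes, *Aurka* (0.28, adjusted p = 0.0295) and *Rrm2* (0.22, adjusted p = 0.0348) rose and *Mcm5* (-0.44, adjusted p = 0.00177) and *Mcm2* (-0.28, adjusted p = 0.00721) fell. The shares called were 50% of the mitochondrial chaperones, 23.1% of the growth genes and 40% of the proliferation genes, compared with 41.9% of all genes.

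**Figure D5:**
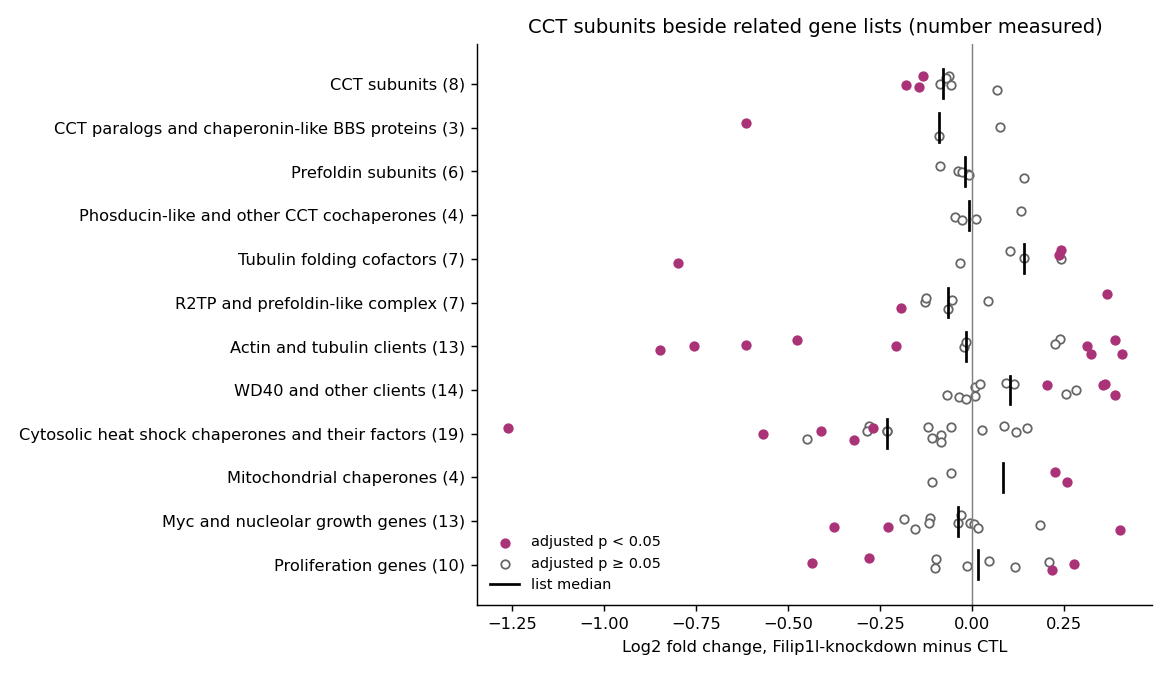
Log2 fold change (horizontal axis) of every measured gene in the CCT subunit list and in related lists, with the number measured in parentheses; filled points passed an adjusted p under 0.05, and black lines are list medians. The 8 CCT subunits, the 6 prefoldin subunits and the 4 cochaperones stay near 0, while the points of the actin and tubulin clients and of the heat shock chaperones cover a wider range.

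The chromosomes of the 8 subunits did not show shifts of that size. The median fold change of the genes on the same chromosome ranged from -0.04 (chromosome 15, *Cct5*) to 0.05 (chromosome 17, *Tcp1*). Each median was taken over genes averaging at least 50 normalized counts, the subunit included. Even these small shifts touched calls, since the subunit changes were small. After chromosome medians were removed, *Cct4* (-0.17, adjusted p = 0.00842, limma) and *Cct6a* (-0.17, adjusted p = 0.00703) remained called, *Tcp1* passed (-0.12, adjusted p = 0.0252) and *Cct5* did not (-0.09, adjusted p = 0.0973).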

How the data were processed

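Poly(A)-selected RNA of 12 tumors was sequenced with the NEBNext Ultra II RNA kit. Per the labels and the study's methods, reads were demultiplexed with bcl2fastq 2.20, trimmed with Trimmomatic 0.36, aligned to mm10 with STAR 2.5.2b and counted with featureCounts (Subread 1.5.2). The deposited values are signal on a count scale, counts divided by DESeq2 size factors. In every tumor 100% of values were whole multiples of 1 read (tolerance 0.01), so whole reads were recovered. The listed genes have means of at least 9.28. GENCODE vM21 gave names, lengths and positions for 99.8% of genes.

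Log2(normalized count + 1) was fitted in limma 3.58.1 (R 4.3.3) with a mean-variance trend, 6 against 6 tumors labelled biological replicates, with Benjamini-Hochberg adjustment over 15687 genes. The filter, a mean of 5, removed 0 genes. Exact permutation tests were two-sided. Alternatives were edgeR 4.0.16 and DESeq2 1.42.0 on recovered reads, other pseudocounts, filters and scalings, a replicate block, covariates and leaving out each tumor. The members and gene lists were chosen with earlier results of these data known. Named in the text are the 8 subunits and the prefoldin subunits. Of each related list, up to 4 called genes with the largest change and a mean of at least 50 are named. For a list without such genes, the gene with the highest mean is named. The called actin and tubulin clients that rose are named as well. Marker lists are given by counts and sums. Figures and counts were made in Python 3.11.15. Errors and intervals cover the spread between tumors only.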

Additional observations from a re-analysis of the deposited data

Results flagged for a closer look

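In 11 of 150 groups of 6 tumors examined, the highest or lowest tumor lay apart from the rest by Dixon's criterion, which chance meets in about 1 of 20 groups. Among the subunits, 1 case was found: the log2 ratio of *Cct3* to the other subunits was -0.0404 in CTL replicate 3, compared with -0.205 to -0.144 in the other CTL tumors. Among related genes, *Arl2* was 785.3 normalized counts in knockdown replicate 4 (others 666 to 704). Knockdown replicate 1 was lowest of its group for *Tbcc* (533.5, others 642 to 703), *Ppp2r2a* (3384, others 3913 to 4059) and *Nolc1* (2176, others 2283 to 2331).

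Among markers, CTL replicate 6 was highest for the muscle genes *Myh1* (1941, others 216 to 664) and *Mylpf* (692.1, others 202 to 371). *Cd68*, a macrophage marker, was 942 in CTL replicate 3 (others 663 to 762), and *S100a9*, a neutrophil marker, was 137.6 in CTL replicate 4 (others 90 to 100). In CTL replicate 5, which had the fewest reads, the endothelial *Cdh5* was 664.7 (others 750 to 798) and the surfactant gene *Sftpb* 94.11 (others 0.947 to 27.3).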

How the results depend on the processing

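The number of subunits called, 3, stayed at 2 or 3 in each of 12 fits that left out 1 tumor and lay between 0 and 5 over 13 alternatives with all tumors. It was 3 with edgeR and with DESeq2 on whole reads, where 42.2% and 44.4% of all genes were called. It was 5 after rescaling to the same total (42.1% of all genes). It was also 5 with trends with GC content and transcript length removed (45.5% of all genes, chosen after the data were seen). Without the trend in limma it was 2 (40.7% of all genes), with *Cct4* lost (adjusted p = 0.0543, limma). With the muscle covariate it was 0 (33% of all genes). Under the covariate *Cct2* reached 0.02884 and *Cct7* 0.01129, and without the GC and length trends *Cct3* reached -0.00765. The causes were not tested. The number with an exact p under 0.05 rose from 4 to 7 after rescaling to the same total. The exact test was run on listed genes only, so no share over all genes stands beside these counts. The stricter rule called 0 subunits in every fit, and the median fold change of the 8 stayed negative, from -0.131 to -0.0293. The ratio of the highest to the lowest level per kilobase was 3.632 with the union of exons.

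Replicate numbers did not pair the tumors: correlations of same-numbered tumors ran from -0.28 to 0.0796, and 0 of 6 correlated best with their own number. With a replicate block, 1 subunit was called (*Cct6a*, adjusted p = 0.0186, limma), with *Cct4* at 0.0915 and *Cct5* at 0.0555. In that fit 37.6% of all genes were called. Over the 11 related lists the number called was 26 to 42 in all fits.

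The smallest subunit change called was -8.75%, and changes of a few percent could not be resolved with 6 tumors a group.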
